A study of Mus with 8 samples.

Results

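The 10 genes followed here are ones that the transcription factor p53 is known to activate, measured in preadipocytes depleted of Prep1: Cdkn1a, Ccng1, Mdm2, Sesn1, Sesn2, Trp53inp1, Bax, Bbc3, Phlda3 and Gdf15. They were chosen by name, as 10 of the 24013 genes of the deposited count table, and each was found by its NCBI gene number. All 10 members passed the filter on low counts and were among the 13339 genes tested.

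The p53 protein, encoded by Trp53, is a transcription factor that accumulates after DNA damage and other stresses, mostly because it is then less efficiently degraded. Its targets act in separate branches: some arrest the cell cycle, some limit oxidative and metabolic stress, some lead to apoptosis, and Mdm2 closes a negative loop because the Mdm2 ubiquitin ligase marks p53 for degradation. In the adipose lineage p53 and its target Cdkn1a are known for their part in the exit of preadipocytes from the cell cycle. Several of the targets also answer to other factors, such as the stress factors ATF4 and CHOP in the case of Sesn2, Bbc3 and Gdf15, so their RNA is not a measure of p53 activity alone.

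All libraries came from the mouse preadipocyte line 3T3-L1, which turns into fat cells in a hormonal cocktail, after lentiviral infection with the vector pLKO.1 and selection in puromycin. The C cells carried a scrambled shRNA, and the P cells a single shRNA directed against Prep1, the homeodomain factor encoded by Pknox1. RNA was collected at day −2, in growth medium with calf serum, and at day 1, after induction with 1 µg/ml insulin, 0.5 mM IBMX and 1 µM dexamethasone in 10% fetal bovine serum. Each of the 4 conditions had 2 biological replicas, which makes 8 libraries. With 1 shRNA, an effect of Prep1 and an effect of that sequence on other transcripts cannot be told apart.

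The libraries held 20428816 to 27614353 counts, and 3 counts, taken as the floor of detection, corresponded to 0.107 to 0.160 CPM. CPM are counts relative to the library size, scaled by edgeR's TMM factors, which lay between 0.837 and 1.08. Pknox1 was at 28.1 and 26.4 CPM in C cells and at 17.2 and 18.3 CPM in P cells at day −2, and at 38.1 and 36.5 CPM against 23.6 and 23.8 CPM at day 1, with log2 ratios of −0.62 (SE 0.14, adjusted p = 0.0558) and −0.65 (SE 0.14, adjusted p = 0.0575) in the quasi-likelihood test of edgeR. The P replicas of day −2 stood apart from each other. Over 5600 well-counted genes, the log2 difference between replicas had a standard deviation of 0.795 in that condition. It was 0.137 for the C cells of the same day, 0.261 for those of day 1 and 0.121 for the P cells of day 1. The spread is shared by all conditions in the test. Results for the 10 targets at day −2 and counts of the genes beside Mdm2 are therefore given below also without each of these 2 libraries. For the other comparisons of the targets this is done only in part. Results of the wider lists, of Trp53 and of Pknox1 are not given in this way, and the part of a single replica in them was not tested. Markers of fat cells moved with the groups: 5 of 7 tested were higher in P than in C cells at day −2 and 6 of 7 at day 1 at an adjusted p under 0.1. Their summed level was 60.6 to 61.2 CPM in C cells and 218 to 227 CPM in P cells at day −2, and 129.7 to 136 CPM against 518 to 560.3 CPM at day 1. Most of this sum was the single gene Lpl. It was at 58.6 and 57.6 CPM in C cells and at 183 and 200 CPM in P cells at day −2. At day 1 it was at 127 and 133 CPM in C cells and at 417 and 375 CPM in P cells. The adipokine gene Lep was not tested, at 0 counts in both C libraries and at 0 and 3 counts in the P libraries of day −2. In the P libraries of day 1 it was at 1 and 0 counts. Adiponectin (Adipoq) was at 1 count in each C library of day −2 and at 5 and 7 counts in the P libraries of that day. Markers of preadipocytes and fibroblasts, among them Pdgfra, Dlk1 and Col1a1, summed to at least 16115.5 CPM in every library. Their sum was 78370.7 CPM in the one P library of day −2 and 22152.6 CPM in the other, with Col1a1 at 23549.7 CPM in replica 1 and 4879.68 CPM in replica 2, against 3931 and 3293 CPM in the C cells of that day, so replica 1 stood apart in these markers too. Thy1 and Pdgfrb of this list of 10 were higher and Cd34 lower in P cells before induction, and none after it. Markers of leukocytes, endothelium, epithelium and muscle summed to at most 23.4, 2.39, 3.43 and 7.19 CPM. The leukocyte markers Cd14 and Csf1r, 2 of 3 tested, and the epithelial marker Krt8, 1 of 2 tested, were lower in P cells before induction, and Cd14 after it. Cd14 was at 15.4 CPM in both C libraries and at 5.86 and 4.42 CPM in the P libraries of day −2. In bulk RNA, fewer cells that express a gene and less RNA per cell cannot be told apart, and the part of these markers' changes in the results on p53 targets was not tested.

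Trp53 itself, which is not among the 10, was lower after induction in both cell types. It was at 221 and 225 CPM in C cells and 194 and 188 CPM in P cells at day −2, and at 128 and 117 CPM in C cells and 119.9 and 121 CPM in P cells at day 1. Its RNA fell upon induction in C cells (log2 ratio −0.87, SE 0.13, adjusted p = 0.00382) and in P cells (−0.66, SE 0.13, adjusted p = 0.0130) in the quasi-likelihood test of edgeR, with p adjusted after Benjamini and Hochberg. The difference between P and C cells passed the test neither at day −2 (−0.22, SE 0.13, adjusted p = 0.301) nor at day 1 (−0.02, SE 0.13, adjusted p = 0.975). Since p53 is mostly controlled as a protein, the RNA says little about its amount.

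The levels of the 10 targets are taken in the order of their roles, from the negative loop to cell cycle arrest, stress, apoptosis and secreted signals, with the value of replica 1 before that of replica 2. The plot of CPM by library shows the same values.

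**Figure D1:**
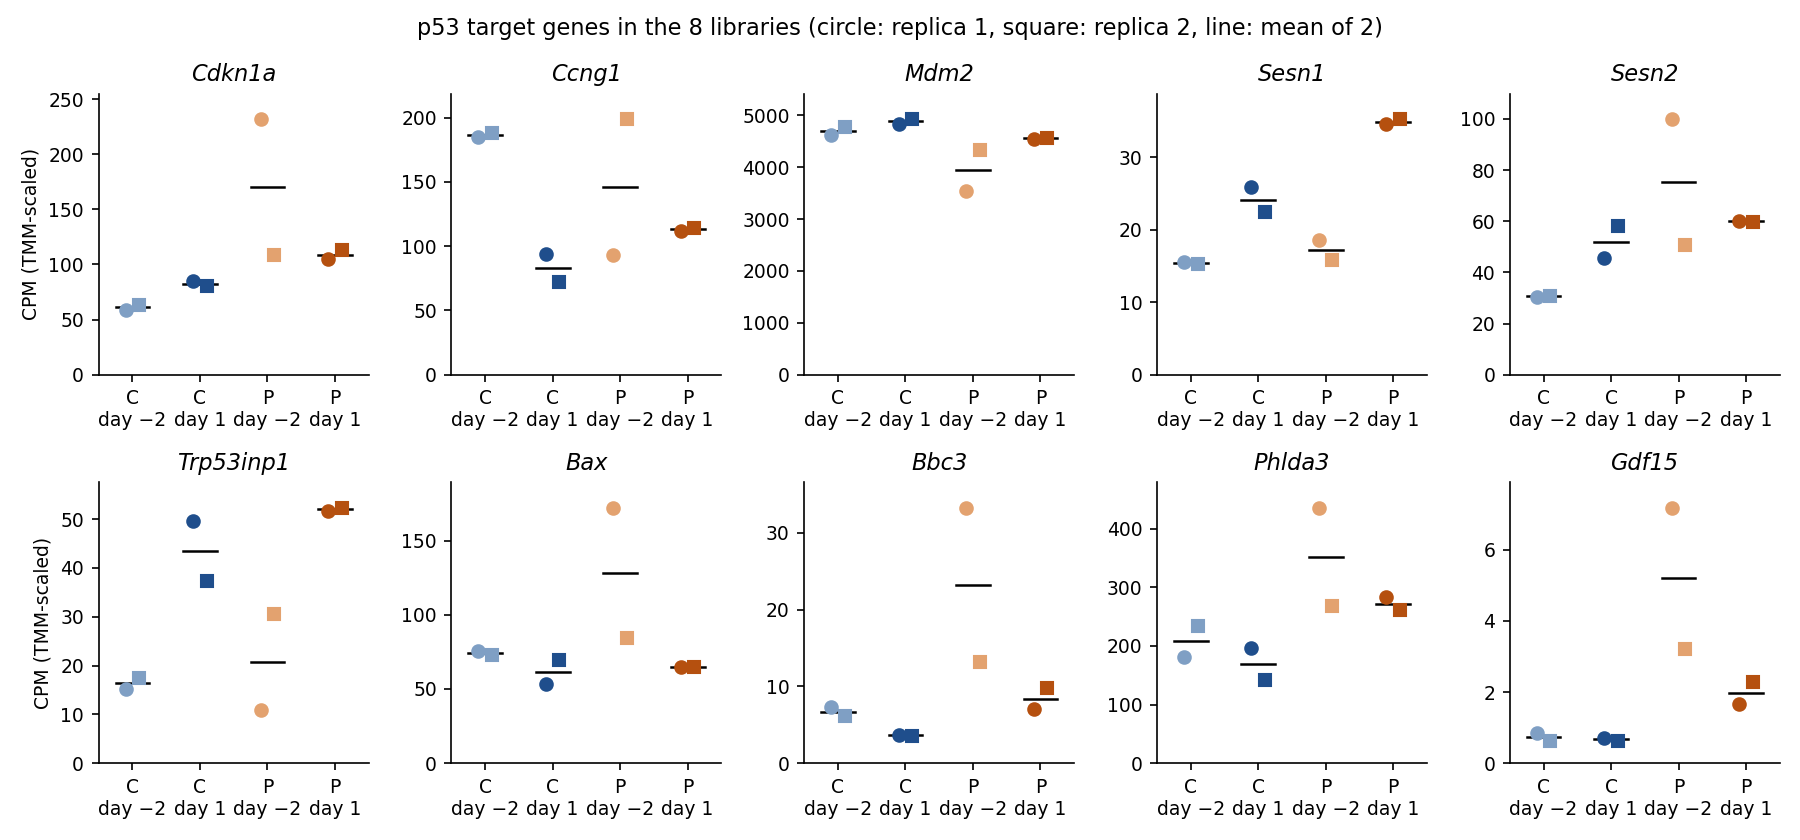
CPM, scaled by TMM, of the 10 p53 targets in each of the 8 libraries, in 1 panel per gene with its own linear axis from 0; circles are replica 1, squares replica 2 and lines the mean of both, for C and P cells at each day. The P replicas lie far apart at day −2 for most targets (Cdkn1a at 232 and 109 CPM) and close together at day 1 (105 and 113 CPM).

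Mdm2 encodes the ubiquitin ligase that holds p53 down. It was at 4627 and 4773 CPM in C cells and at 3541 and 4332 CPM in P cells at day −2, and at 4840.2 and 4928 CPM in C cells and 4550.4 and 4556 CPM in P cells at day 1. The libraries of P cells lay below those of C cells on each day, yet the difference was small against the spread and passed the test in no comparison. Mdm2 had the smallest range of the 10 targets, with 1.24-fold between the lowest and the highest condition mean, and it was counted far more than the others. It took 0.297% to 0.515% of all counts of a library, and was ninth among the 13339 tested genes by its mean CPM, on a scale of counts that is not corrected for the length of the transcript.

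Cdkn1a encodes p21, the inhibitor of cyclin-dependent kinases through which p53 arrests the cell cycle. It was at 59.0 and 62.9 CPM in C cells at day −2, and at 232 and 109 CPM in P cells. At day 1 the C cells were at 84.7 and 80.7 CPM and the P cells at 105 and 113 CPM. Both P libraries thus lay above both C libraries on each day, and replica 1 of P cells at day −2 was the highest of all 8.

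Ccng1 encodes cyclin G1, which recruits a phosphatase to Mdm2. It was at 185 and 188 CPM in C cells at day −2 and at 94.3 and 72.2 CPM at day 1. In P cells it was at 93.3 and 199 CPM at day −2, values that enclose those of the C cells, and at 112 and 114 CPM at day 1.

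The sestrins limit oxidative stress and restrain the growth kinase complex mTORC1. Sesn1 was at 15.6 and 15.2 CPM in C cells and at 18.5 and 15.9 CPM in P cells at day −2, and at 25.9 and 22.4 CPM against 34.5 and 35.2 CPM at day 1. Its 4 conditions did not overlap, in the order C day −2, P day −2, C day 1 and P day 1. Sesn2 was at 30.2 and 30.9 CPM in C cells and at 100.0 and 50.6 CPM in P cells at day −2, and at 45.4 and 58.0 CPM against 60.1 and 59.8 CPM at day 1. For Sesn2 the P libraries of day −2 enclosed those of day 1, and both lay above the C cells except that replica 2 of P cells at day −2 was below replica 2 of C cells at day 1.

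Trp53inp1 encodes a stress protein that acts with p53 in the nucleus and in autophagy. It was at 15.3 and 17.5 CPM in C cells at day −2 and at 49.6 and 37.2 CPM at day 1. In P cells it was at 11.0 and 30.6 CPM at day −2, one value below and the other above the C cells, and at 51.6 and 52.4 CPM at day 1.

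Bax and Bbc3 belong to the mitochondrial pathway of apoptosis: Bax permeabilizes the outer membrane, and Bbc3 (Puma) sets it free from the protective Bcl-2 proteins. Bax was at 75.5 and 73.1 CPM in C cells and at 172 and 84.2 CPM in P cells at day −2, and at 53.1 and 69.5 CPM against 64.6 and 65.1 CPM at day 1, where the C libraries enclosed the P libraries. Bbc3 was at 7.29 and 6.15 CPM in C cells and at 33.3 and 13.2 CPM in P cells at day −2. At day 1 it was at 3.63 and 3.58 CPM in C cells and at 7.05 and 9.75 CPM in P cells, so that the P libraries were above the C libraries on each day.

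Phlda3 encodes a small lipid-binding protein that keeps the kinase Akt from the membrane. It was at 182 and 234 CPM in C cells and at 436 and 268 CPM in P cells at day −2, and at 196 and 141 CPM against 283 and 261 CPM at day 1. The P libraries were above the C libraries on both days.

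Gdf15 encodes a secreted stress cytokine of the TGF-β family. It was the least counted of the 10 targets, at 0.836 and 0.620 CPM in C cells and at 7.19 and 3.21 CPM in P cells at day −2, and at 0.710 and 0.637 CPM against 1.67 and 2.29 CPM at day 1. These values rest on 14 to 21 counts in the libraries of C cells, which are above the floor of 3, and on 135, 90, 39 and 49 counts in those of P cells. Every P library had more than every C library. Its range of 7.72-fold between the condition means was the largest of the 10 targets, followed by Bbc3 with 6.45-fold.

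At day −2, before induction, 4 of the 10 targets were higher in P than in C cells and none was lower. Gdf15 rose 7.04-fold, Bbc3 3.45-fold, Cdkn1a 2.79-fold and Sesn2 2.46-fold. They belong to separate branches of the response: a secreted cytokine, apoptosis, cell cycle arrest and metabolic stress. In the quasi-likelihood test of edgeR, adjusted after Benjamini and Hochberg over all genes, the log2 ratios were 2.81 (SE 0.48, adjusted p = 0.0217) for Gdf15, 1.78 (SE 0.43, adjusted p = 0.0636) for Bbc3, 1.48 (SE 0.33, adjusted p = 0.0495) for Cdkn1a and 1.30 (SE 0.31, adjusted p = 0.0640) for Sesn2. An adjusted p under 0.1 counted as past the test, which 7.62% of all tested genes reached on the higher side, 3.72% on the lower side and 11.3% in either direction. The median log2 ratio was 0.77 over the 10 targets and 0.01 over all tested genes.

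The other 6 targets did not pass the test at day −2. Bax (log2 ratio 0.79, SE 0.32, adjusted p = 0.187) and Phlda3 (0.76, SE 0.28, adjusted p = 0.157) were the nearest to it. Trp53inp1 was at 0.35 (SE 0.43), Sesn1 at 0.16 (SE 0.16), Mdm2 at −0.26 (SE 0.16) and Ccng1 at −0.35 (SE 0.33), each within about 2 standard errors of no difference. An unadjusted p under 0.05 was found for 6 of the 10, against 25.2% of all tested genes. By their libraries alone, 7 targets lay wholly above the C cells, 1 wholly below and 2 overlapped, while 26.5% of all tested genes lay wholly above and 27.3% wholly below.

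**Figure D2:**
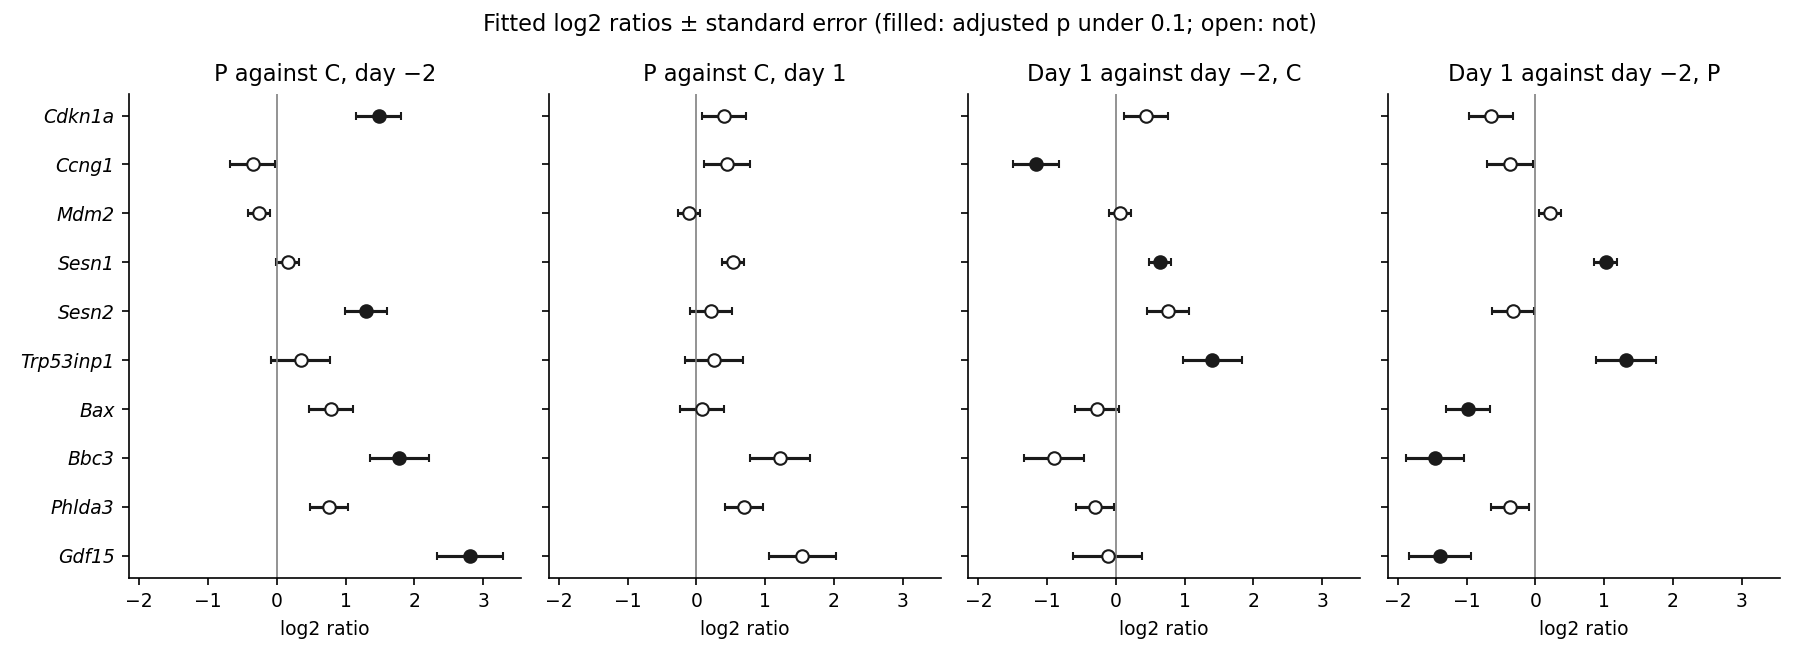
Log2 ratios (points) with their standard errors (bars) of the 10 p53 targets, in 4 panels for P against C on each day and for the induction of C and of P cells; filled points passed the test at an adjusted p under 0.1. At day −2 the 4 targets past the test lie between 1.30 and 2.81, and at day 1 none is past it.

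The P replicas of day −2 agreed on the direction of these 4 targets but not on the size. Against the mean of the C cells, Gdf15 had log2 ratios of 3.30 (replica 1) and 2.14 (replica 2), Bbc3 at 2.31 and 0.98, Cdkn1a at 1.93 and 0.83, and Sesn2 at 1.71 and 0.73. Replica 1 was the higher for all 4. The same held for Bax (1.21 and 0.18), Phlda3 (1.07 and 0.37) and Sesn1 (0.27 and 0.04), whereas Trp53inp1 (−0.58 and 0.90) and Ccng1 (−1.00 and 0.09) were lower in replica 1 and went in opposite directions in the 2 replicas.

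Without replica 1 of P cells at day −2, the log2 ratios were 2.13 for Gdf15, 0.98 for Bbc3, 0.91 for Trp53inp1, 0.84 for Cdkn1a and 0.73 for Sesn2. Phlda3 was then at 0.37, Bax at 0.19, Ccng1 at 0.10, Sesn1 at 0.05 and Mdm2 at −0.11. Without replica 2, Gdf15 was at 3.29, Bbc3 at 2.30, Cdkn1a at 1.93, Sesn2 at 1.71, Bax at 1.21, Phlda3 at 1.07 and Sesn1 at 0.27. Ccng1 was then at −1.00, Trp53inp1 at −0.58 and Mdm2 at −0.41. In these fits the lone P library of day −2 is assumed to vary like the other conditions, whose replicas are closer. Gdf15, Bbc3, Cdkn1a and Sesn2 were higher in both. Fitted on the day −2 libraries alone none of the 10 passed, and with the replica number as a block 2 did, Cdkn1a and Gdf15. Over 17 alternative fits, Gdf15 was past the test in 14, Cdkn1a in 10, Bbc3 in 9 and Sesn2 in 8, with the same direction in all 17. Without any 1 of the other libraries the count was 0 or 1: it was 0 without either C library of day −2, and 1, Gdf15, without any of the 4 libraries of day 1.

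**Figure D3:**
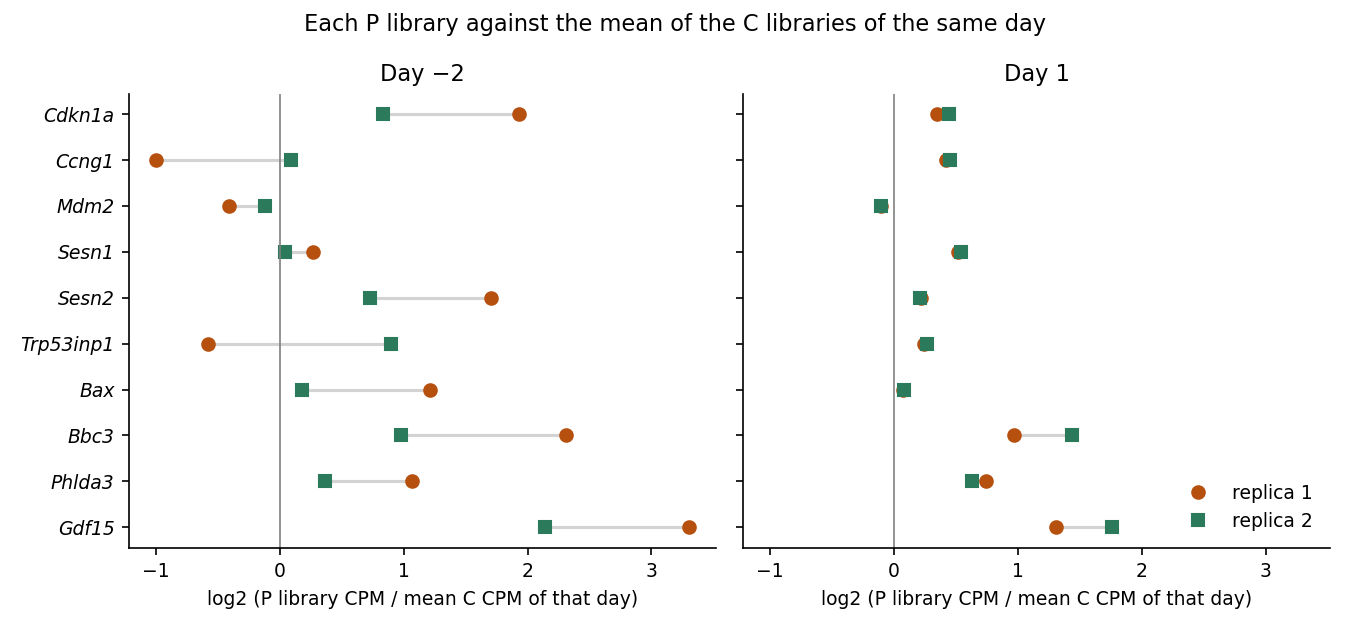
Log2 ratio of each P library to the mean of the C libraries of the same day (x axis), for the 10 p53 targets at day −2 (left) and day 1 (right); circles are replica 1, squares replica 2, and grey lines join them. The replicas of day −2 are far apart (3.30 and 2.14 for Gdf15, −0.58 and 0.90 for Trp53inp1), while at day 1 they nearly coincide for most targets and are farthest apart for Bbc3 (0.97 and 1.44) and Gdf15 (1.31 and 1.76).

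At day 1, after induction, 9 of the 10 targets had a log2 ratio above 0 in P against C cells, but none passed the test, which 6.15% of all tested genes did, 2.73% higher and 3.42% lower. By the unadjusted p, 4 of the 10 targets were under 0.05, as were 16.2% of all genes. The log2 ratio was 1.54 (SE 0.48, adjusted p = 0.160) for Gdf15, 1.22 (SE 0.43, adjusted p = 0.219) for Bbc3, 0.69 (SE 0.28, adjusted p = 0.287) for Phlda3 and 0.53 (SE 0.16, adjusted p = 0.151) for Sesn1. Cdkn1a was at 0.40 (SE 0.32) and Sesn2 at 0.21 (SE 0.31), below their values of day −2. Ccng1 was at 0.44 (SE 0.33), Trp53inp1 at 0.26 (SE 0.42), Bax at 0.08 (SE 0.32) and Mdm2 at −0.10 (SE 0.16). The median was 0.42 over the 10 targets and 0.01 over all tested genes.

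The test of day 1 depends on the P libraries of day −2, whose spread enters the shared estimate. Without either of them, 6 targets were past the test at day 1, all higher: Gdf15, Bbc3, Phlda3, Sesn1, Ccng1 and Cdkn1a. Without replica 1, the adjusted p was 0.00353 for Bbc3 in the quasi-likelihood test of edgeR, 0.00915 for Sesn1, 0.0170 for Cdkn1a, 0.0187 for Gdf15, 0.0190 for Phlda3 and 0.0345 for Ccng1. The log2 ratios of day 1 moved by at most 0.0229 without that library. A fit on the day 1 libraries alone also gave 6 targets, and DESeq2 in place of edgeR gave 2, Sesn1 and Gdf15. The share of all tested genes past the test is not given for any of these fits. Whether the targets stand out from other genes in them was not tested. The 8 targets whose P libraries lay wholly above the C libraries compare with 30.6% of all tested genes, and the 1 wholly below with 29.9%.

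Upon induction of C cells, 2 targets rose and 1 fell. Trp53inp1 rose 2.65-fold (log2 ratio 1.41, SE 0.43, adjusted p = 0.0547) and Sesn1 1.57-fold (0.65, SE 0.16, adjusted p = 0.0281), both of the stress branch, while Ccng1 was 2.24-fold lower (−1.16, SE 0.34, adjusted p = 0.0441), all by edgeR's quasi-likelihood test. These 3 of 10 stand beside 35.6% of all tested genes, 18.1% higher and 17.4% lower, and 4 of 10 with an unadjusted p under 0.05 beside 39.4%. Sesn2 (0.76, SE 0.31), Cdkn1a (0.44, SE 0.32), Mdm2 (0.06, SE 0.16), Gdf15 (−0.12, SE 0.50), Bax (−0.28, SE 0.32), Phlda3 (−0.30, SE 0.28) and Bbc3 (−0.90, SE 0.43) did not pass. The count was 0 without either C library of day −2 or without replica 1 of C cells at day 1, 1 without replica 2 of C cells at day 1, and 6 and 7 without replica 1 and replica 2 of P cells at day −2. The share of all tested genes past the test in these fits is not given. These counts are therefore not read as a trait of the targets. The libraries of day 1 lay wholly above those of day −2 for 5 targets and wholly below for 3. The shares of all tested genes were 38.2% and 39.5%. The median over the targets was −0.03, against −0.01 over all tested genes.

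Upon induction of P cells, 2 targets rose and 3 fell. Trp53inp1 (log2 ratio 1.32, SE 0.43, adjusted p = 0.0726) and Sesn1 (1.02, SE 0.16, adjusted p = 0.00673) were again the higher ones. The apoptosis genes Bbc3 (−1.47, SE 0.42, adjusted p = 0.0508) and Bax (−0.98, SE 0.32, adjusted p = 0.0722) and the cytokine gene Gdf15 (−1.39, SE 0.44, adjusted p = 0.0680) were lower. The test was passed by 31.4% of all tested genes, 14.0% on the higher side and 17.4% on the lower. An unadjusted p under 0.05 was found for 5 of the 10 targets and for 36.7% of all genes, and the libraries were apart in the higher direction for 3 targets and in the lower for 3, as for 31.6% and 29.0%. Phlda3 (−0.37), Ccng1 (−0.37), Sesn2 (−0.33), Cdkn1a (−0.64) and Mdm2 (0.21) did not pass, and the median was −0.37 against 0.02 over all tested genes. Since both comparisons that involve P cells at day −2 share those libraries, a value high at day −2 enters the difference between P and C cells and the fall upon induction alike. Without replica 1 of P cells at day −2 the falls were smaller, with Bbc3 at −0.67, Bax at −0.39 and Gdf15 at −0.71, while Ccng1 was at −0.82. Without replica 2, Bbc3 was at −1.99, Bax at −1.41 and Gdf15 at −1.86. The rise of Trp53inp1 was 0.76 without replica 1 and 2.24 without replica 2, and that of Sesn1 was 1.13 and 0.91. Cdkn1a was at −0.0047 without replica 1 and at −1.09 without replica 2. The count was 1 without either P library of day 1, 2 without any 1 of the C libraries, 1 on the P libraries alone and 3 with the replica block.

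Whether induction acted differently in the P cells was tested as an interaction. None of the 10 targets passed the test, which 2.37% of all tested genes did, 0.435% with a more positive and 1.93% with a more negative response in P cells. Sesn2 (log2 difference −1.09, SE 0.43, adjusted p = 0.329) and Cdkn1a (−1.08, SE 0.45, adjusted p = 0.343) were the 2 targets with an unadjusted p under 0.05 in edgeR's quasi-likelihood test, 0.0417 and 0.0484, as had 14.4% of all genes. In both the response was more positive in C than in P cells. Without replica 1 of P cells at day −2 the log2 difference was −0.54 for Sesn2 and −0.46 for Cdkn1a. Without replica 2 it was −1.50 for Sesn2 and −1.53 for Cdkn1a. Thus a loss upon induction of the difference seen at day −2 was not shown for these targets with all libraries in the fit. Its absence was not shown either, as the spread of the P libraries of day −2 enters this test too.

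The other known p53 targets, taken from lists written by hand, were mostly not past the test at day −2, when 7.62% of all tested genes were higher and 3.72% lower. Of 15 tested genes of arrest and DNA damage repair 2 were higher and none lower in P cells, of 8 genes of cell death none was past the test, and of 6 genes of metabolism 1 was higher. The median log2 ratios were 0.13, 0.20 and 0.44. Btg2, an antiproliferative gene, was at 10.2 and 10.2 CPM in C cells and at 76.0 and 44.1 CPM in P cells at day −2 (log2 ratio 2.55, SE 0.26, adjusted p = 0.00377). The repair endonuclease gene Ercc5 (0.50, SE 0.13, adjusted p = 0.0792) and the carnitine palmitoyltransferase gene Cpt1c (0.75, SE 0.18, adjusted p = 0.0644) were also higher. At day 1, with 2.73% of all tested genes higher and 3.42% lower, these 3 lists gave 1 higher gene, the RNA-binding factor Zmat3 (0.59, SE 0.15, adjusted p = 0.0933), and 1 lower, the kinase Plk3 (−0.99, SE 0.22, adjusted p = 0.0652), both of the arrest and damage list.

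The lists that follow are to be read beside the same shares of all tested genes, 7.62% higher and 3.72% lower at day −2 and 2.73% and 3.42% at day 1. Among p53 and 16 of its regulators, the p53 paralog Trp63 was higher at day −2 (log2 ratio 1.44, SE 0.21, adjusted p = 0.0131), and the checkpoint kinases Chek2 (−1.00, SE 0.19, adjusted p = 0.0293) and Chek1 (−0.98, SE 0.28, adjusted p = 0.0975) were lower. At day 1 Trp63 (−0.94, SE 0.21, adjusted p = 0.0595) and the phosphatase Ppm1d (−0.79, SE 0.17, adjusted p = 0.0576), itself a p53 target that turns the pathway off, were lower. The median of the list was −0.38 at day −2 and −0.08 at day 1. The P replicas of day −2 differed here too. Usp7 was at 70.3 CPM in replica 1 and 156 CPM in replica 2, and Cdkn2a went the other way, at 331 and 195 CPM.

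Of 7 tested paralogs, 3 were higher in P cells at day −2 and none at day 1. They were the cell cycle inhibitor Cdkn1b, a paralog of Cdkn1a (0.90, SE 0.17, adjusted p = 0.0325), Trp53inp2, a paralog of Trp53inp1 (0.73, SE 0.14, adjusted p = 0.0340), and the Bax relative Bok (0.99, SE 0.27, adjusted p = 0.0835). Of 7 tested Bcl-2 partners of Bax and Bbc3, the protective gene Bcl2l2 was higher at day −2 (1.09, SE 0.30, adjusted p = 0.0902), and the proapoptotic gene Bmf was lower at day 1 (−1.30, SE 0.29, adjusted p = 0.0661).

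Genes of the ATF4 and CHOP stress response, which can raise several of the 10 targets without p53, went in both directions. Of 14 tested, 3 were higher and 3 lower in P cells at day −2, and 3 were lower at day 1. Ddit3, which encodes CHOP itself, was higher at day −2 (0.80, SE 0.17, adjusted p = 0.0436), as were the lipoprotein receptor gene Vldlr (1.74, SE 0.19, adjusted p = 0.00435) and the phosphatase subunit gene Ppp1r15a. Nupr1, a stress-induced chromatin protein gene (−1.00, SE 0.16, adjusted p = 0.0155), and the serine synthesis gene Psat1 (−0.56, SE 0.15, adjusted p = 0.0789) were lower. Of 18 proliferation genes, the ribonucleotide reductase subunit Rrm2 was higher in P cells at day −2 (0.93, SE 0.16, adjusted p = 0.0250) and at day 1 (1.03, SE 0.17, adjusted p = 0.0238), and the cyclin gene Ccne1 at day 1 (0.91, SE 0.15, adjusted p = 0.0272). None was past the test on the lower side on either day, and the list's median was −0.13 and 0.20. In replica 1 and replica 2 of P cells at day −2, Ccne2 was at 3.30 and 22.3 CPM and Mcm3 at 452 and 255 CPM.

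**Figure D4:**
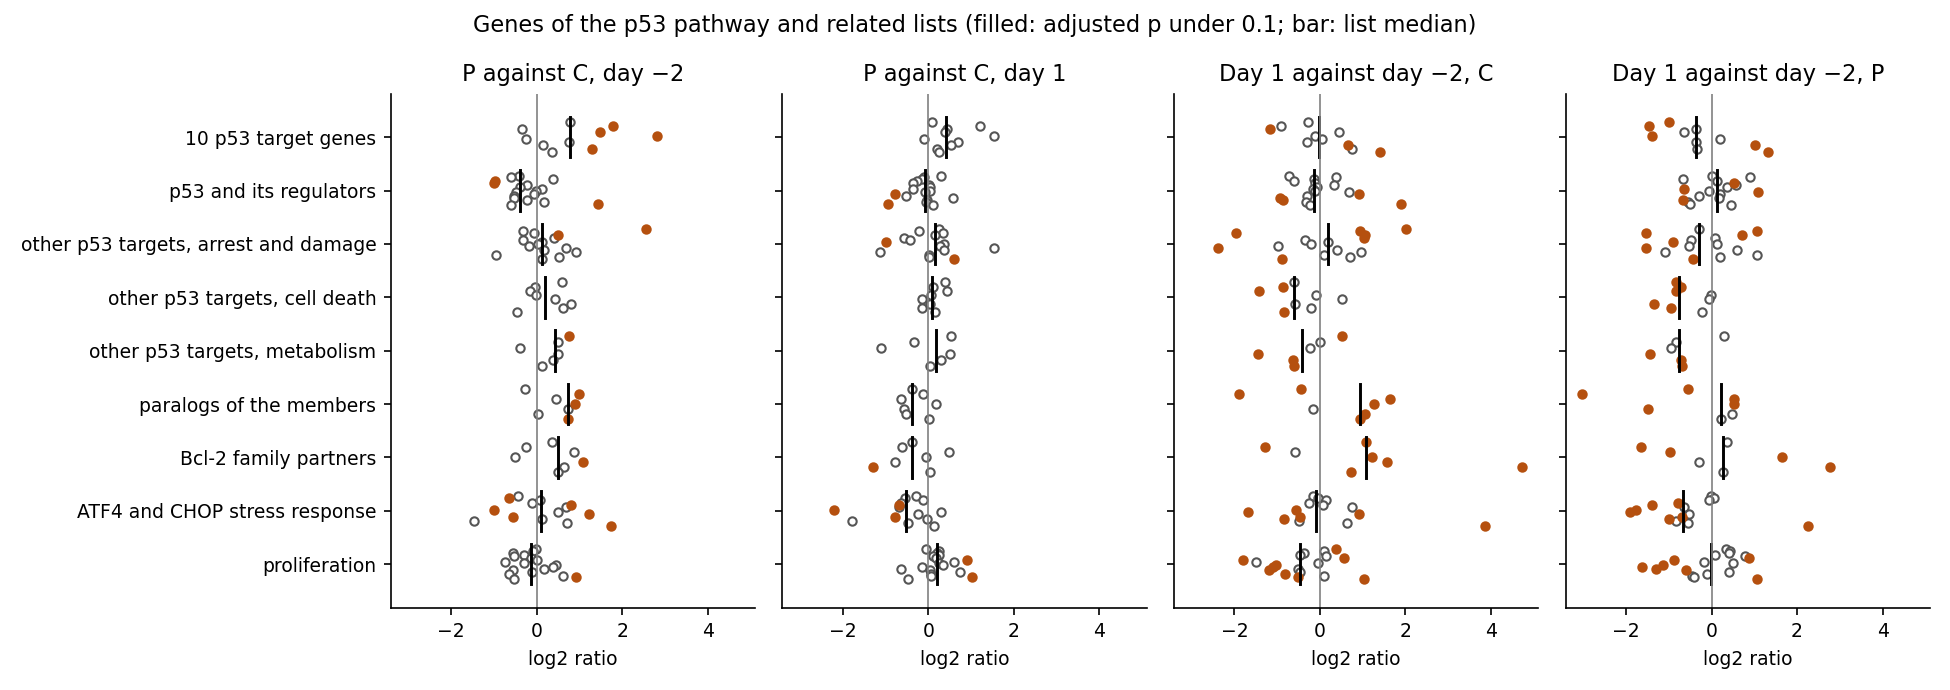
Log2 ratio (x axis) of each tested gene of the 10 p53 targets and of the 8 wider lists, in 4 panels for P against C cells on each day and for day 1 against day −2 in C and in P cells; points are genes, filled where the adjusted p was under 0.1, and bars are list medians. In P against C cells at day −2 the medians lie between −0.38 for p53 and its regulators and 0.77 for the 10 targets.

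Upon induction most of the wider lists held genes that rose and genes that fell, to be read beside 18.1% of all tested genes higher and 17.4% lower for C cells. For P cells these shares were 14.0% and 17.4%. None of the 8 tested genes of cell death rose and several fell, 3 in C cells and 5 in P cells, among them the BH3 gene Bid (−1.42 in C, −0.82 in P cells) and the apoptosome gene Apaf1 (−0.86 and −0.71). Of the metabolism list 3 of 6 fell in each, with Pank1 at −1.45 and −1.44 and the glycolysis regulator Tigar at −0.61 and −0.69, and Cpt1c rose in C cells (0.53). In the arrest and damage list 4 rose and 3 fell in C cells, where Btg2 (2.01) and Ercc5 (1.06) were the higher and E2f7 (−1.95) and Zmat3 (−0.88) the lower with the lowest p, while 2 rose and 4 fell in P cells, with Ercc5 (0.71) and Ddb2 (1.05) among the higher and E2f7 (−1.54) and Plk3 (−0.91) among the lower. These values are log2 ratios of day 1 to day −2 that passed the test.

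Of p53 and its regulators, 2 rose and 2 fell in each cell type: Trp63 (1.89), Ppm1d (0.91), Trp53 and Sirt1 (−0.93) in C cells, and Mdm4 (1.08), Chek2 (0.53), Trp53 and Hipk2 (−0.64) in P cells. Of the paralogs 4 rose and 2 fell in C cells and 2 rose and 3 fell in P cells. The cyclin G1 paralog Ccng2 (1.63 and 0.53) and Cdkn1b (1.26 and 0.54) rose in both, Bok (−1.90 and −3.02) and Bak1 (−0.45 and −0.54) fell in both, and Phlda1 (−1.47) fell in P cells. Of the Bcl-2 partners 5 rose and 1 fell in C cells and 2 rose and 2 fell in P cells, with the proapoptotic genes Bmf (4.72 and 2.78) and Bcl2l11 (1.21 and 1.65) higher in both and the protective Bcl2 (−1.29 and −1.65) lower in both. In C cells the protective genes Bcl2l2 (1.57) and Mcl1 (0.72) and the proapoptotic Bad (1.08) rose as well, and in P cells the protective Bcl2l1 (−0.96) fell. The stress response list had 2 higher and 4 lower genes in C cells, with Vldlr (3.86), Ppp1r15a (0.92), Phgdh (−1.68) and Nupr1 (−0.56) in front, and 1 higher and 6 lower in P cells, with Vldlr (2.25), Nupr1 (−1.75) and Ddit3 (−1.40). Its medians were −0.10 and −0.67. In the proliferation list 3 rose and 6 fell in C cells, and 2 rose and 5 fell in P cells, with medians of −0.46 and −0.02. The mitotic genes Top2a (1.03 and 1.07) and Ccnb2 (0.56 and 0.89) rose in both, and the genes of replication start Ccne1 (−1.79) and Mcm6 (−1.19) fell most clearly in C cells and Mcm2 (−1.14) and Mcm3 (−1.63) in P cells.

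The genes most like Cdkn1a over the 8 libraries, by Pearson's r of log2 CPM among 10895 genes with a mean of at least 50 counts, were Mypop (0.996), Dact3 (0.992) and Azi2 (0.991). Those most like Mdm2 were Mbtd1 (0.990), Acsl4 (0.989) and Pik3c3 (0.989). None of these is in the lists of p53 targets. The libraries share their depth and the spread of the P replicas of day −2, and 69 genes were above 0.95 with Cdkn1a and 78 with Mdm2, so these values are a description.

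Several genes beside Mdm2 on its chromosome were higher in P than in C cells, on both days. The 15 genes on each side were looked at after the high level of Mdm2 had been seen, in the gene order of the RefSeq list for GRCm38.p6. A total of 19 of them were tested. In P against C cells 10 were higher and 1 lower at day −2, and 9 were higher and none lower at day 1, where the background of higher genes was 7.62% and 2.73%. The 8 genes higher on both days were Cct2, Frs2, Yeats4, Cpsf6, Nup107, Mdm1, 4933412E12Rik and 4933411E08Rik. The nucleoporin gene Nup107 was at 273 and 276 CPM in C cells and 1188 and 1114 CPM in P cells at day −2, and at 199.9 and 213 CPM against 1258 and 1206 CPM at day 1. Its log2 ratios were 2.07 (SE 0.14, adjusted p = 0.00142) and 2.58 (SE 0.14, adjusted p = 8.55e-04), and here the P replicas of day −2 were close. Yeats4, a chromatin reader gene, had 1.38 (SE 0.15, adjusted p = 0.00452) and 2.32 (SE 0.15, adjusted p = 0.00118), and the chaperonin gene Cct2 1.12 (SE 0.14, adjusted p = 0.00665) and 1.25 (SE 0.14, adjusted p = 0.00689).

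Among these neighbours Slc35e3 was the 1 that was lower in P cells at day −2, with 665 and 819 CPM against 1076 and 1112 CPM (−0.56, SE 0.16, adjusted p = 0.0901). Neighbours that did not pass the test on either day were found both near to Mdm2 (Rap1b and 9530003J23Rik) and farther from it (Best3, Myrfl, Rab3ip, Dyrk2 and Cand1). Without replica 1 of P cells at day −2, 12 neighbours were higher and 1 lower at day −2 and 14 higher at day 1, and without replica 2, 12 were higher and 4 lower and 14 higher. The shares of all tested genes past the test in these fits are not given here. 3T3-L1 cells are known to carry extra copies of the Mdm2 region. The number of gene copies was not measured in these libraries, and whether it differs between C and P cells was not tested.

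**Figure D5:**
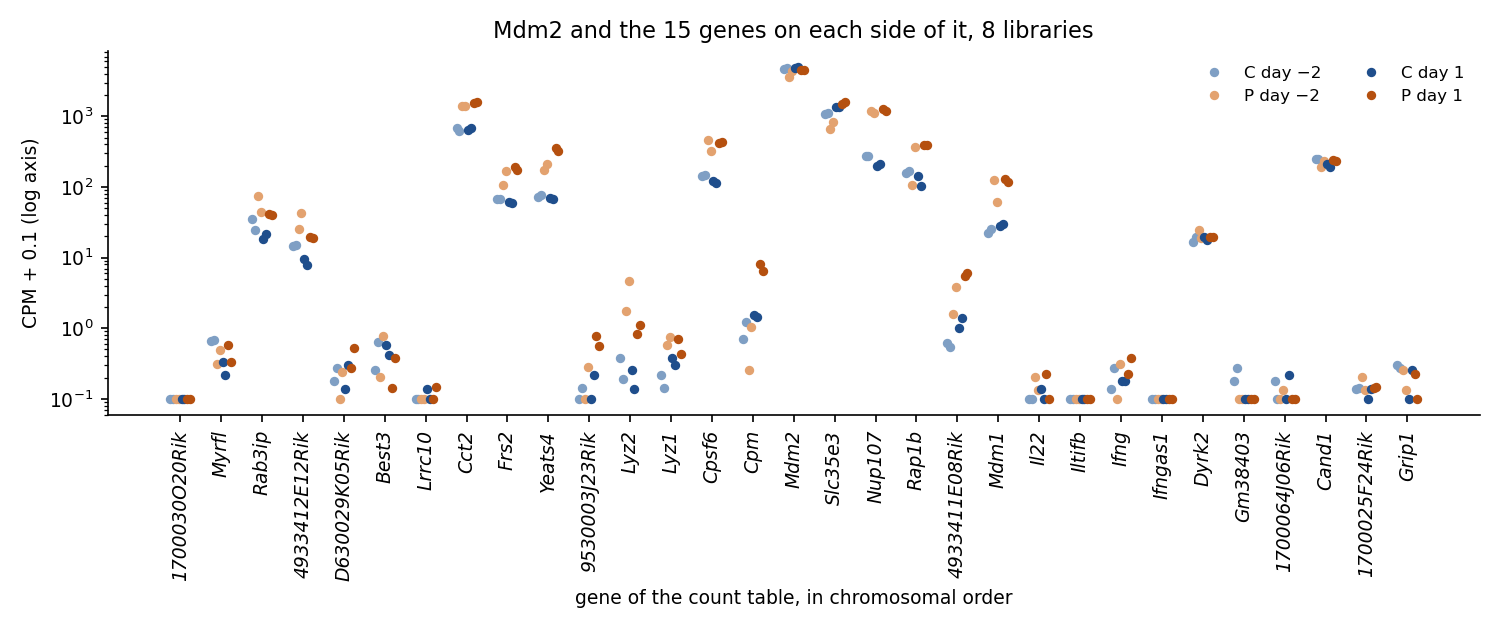
CPM + 0.1 (log axis) of Mdm2 and of the 15 genes on each side of it in the chromosomal order of GRCm38.p6 (x axis); points are the 8 libraries, coloured by condition. Mdm2 stands highest with its 4 conditions together, and Nup107, Cct2, Yeats4 and Cpsf6 show the P libraries of both days (orange) above the C libraries (blue).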

How the data were processed

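RNA from the 4 conditions was sequenced on the Ion Torrent system. The authors used the FASTX-Toolkit to clean the reads and TopHat 2.0.9 to align them to mm9, and deposited raw counts per NCBI gene of the UCSC refGene annotation, made with GenomicFeatures, GenomicRanges and GenomicAlignments. The use of the strand and of reads with several places is not given in the sources used here. In the RefSeq list for GRCm38.p6, which gave symbols for 23929 genes and none for 84, 0 of the 10 targets overlap another counted gene. Coordinates of that list were used only for this overlap and for the gene order around Mdm2, and sequences are not shown. The table held 0 columns of other samples.

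The analysis used edgeR 4.0.16 (with limma 3.58.1, under R 4.3.3): filterByExpr, TMM, a prior count of 2 for log2 CPM, and a two-sided quasi-likelihood test on all 8 libraries with 1 mean per condition. Past the test means a Benjamini-Hochberg adjusted p under 0.1 over 13339 genes. A gene not past the test is not thereby shown to be unchanged. The share of all tested genes past the test is given for the fit on all 8 libraries only. Counts of targets in other fits are therefore not read as a trait of the targets. P-values and standard errors of the fit on all 8 libraries rest on the spread between the 2 biological replicas, estimated jointly over all conditions. They do not measure the spread within the compared conditions alone. The floor of detection is a set number of counts and does not include the spread between replicas.

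The 10 targets and all lists were chosen with earlier results of these data known. Named beside the targets were Trp53, Pknox1, up to 2 higher and 2 lower genes per list and comparison with the lowest p among those past the test, and the 3 genes most like Cdkn1a and Mdm2. Ppp1r15a and Bok at day −2 and the neighbours of Mdm2 were named after their values were seen. Other genes were named outside that rule too, among them Bcl2l2, Mcl1 and Bad in the induction of C cells. Usp7, Cdkn2a, Ccne2 and Mcm3 were named for their P replicas of day −2, and some cell type markers for their levels. Alternatives were DESeq2 1.42.0, its size factors, library totals, other filters and thresholds, each comparison on its own conditions, a replica block and each library left out.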

Additional observations from a re-analysis of the deposited data

Results flagged for a closer look

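None of the 10 p53 targets differed between C and P cells in its response to induction in edgeR's interaction test, and conditions of 2 replicas are too small for a test of single outlying libraries. Among the 102 tested genes of the targets and the wider lists, 5 passed that test at a Benjamini-Hochberg adjusted p under 0.1, all with a more negative response in P than in C cells. Trp63 had a log2 difference of −2.38 (SE 0.30, adjusted p = 0.0182), with 3.07 and 3.01 CPM at day −2 and 11.7 and 10.8 CPM at day 1 in C cells, against 7.29 and 9.16 CPM and 6.28 and 5.41 CPM in P cells. Btg2 had −2.31 (SE 0.36, adjusted p = 0.0388), with a day 1 level of 42.4 and 40.1 CPM in C cells and 48.7 and 49.2 CPM in P cells. Vldlr had −1.62 (SE 0.25, adjusted p = 0.0414), Ddit3 −1.48 (SE 0.24, adjusted p = 0.0445) and Nupr1 −1.20 (SE 0.22, adjusted p = 0.0651). The share of all tested genes past the interaction test was 2.37%.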

How the results depend on the processing

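Of 940 values of the 10 targets' ratios under the alternatives, 789 kept their direction and their side of the threshold. Of these, 637 were of ratios not past the test with all libraries. Among the values of ratios past the test with all libraries, 152 stayed past it and 76 did not. A further 54 were newly past it and 21 changed sign, 0 of them among ratios past the test with all libraries. Leaving out 1 library gave 0 to 7 targets in the induction of C cells, 1 to 9 in that of P cells, 0 to 9 for P against C at day −2, 0 to 6 at day 1 and 0 to 7 in the interaction. DESeq2 gave 2 targets at day 1, as did library totals, which put the median log2 ratio of all genes at −0.18 at day −2, 0.11 at day 1, −0.11 and 0.19 in the inductions of C and P cells and 0.29 in the interaction. Each comparison on its own conditions gave 6 targets in the induction of C cells, 1 in that of P cells, 0 at day −2 and 6 at day 1, and an adjusted p under 0.05 left 1 in the induction of P cells and 2 at day −2. The replica block left 3 in the induction of P cells and 2 at day −2, Cdkn1a and Gdf15. The deviations of same-numbered replicas correlated between −0.355 and 0.209 over the pairs of conditions on all genes, and between −0.752 and 0.438 on the well-counted genes. On the well-counted genes they were positive for C and P cells of the same day and negative for the other pairs. On all genes only C and P cells of day −2 had a positive value, and those of day 1 were at −0.153. The labels do not say that a number marks a shared culture or day, so the numbers were not taken to pair the samples. Blocks with crossed numbers, chosen after seeing the data, gave 4 targets at day −2 with the numbers of all day 1 libraries crossed and 3 with those of P cells alone.

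The changes of sign were of log2 values that were not past the test with all libraries. Trp53inp1 was past the test after its change of sign without replica 2 of P cells at day −2, with an adjusted p in edgeR's quasi-likelihood test of 0.0326 at day −2 and 0.0177 in the interaction. With library totals, Mdm2 was at −0.056 in the induction of C cells and at 0.0019 at day 1, Sesn1 at −0.040 at day −2, and Trp53inp1 at 0.14 and Phlda3 at 0.26 in the interaction. With all day 1 numbers crossed, Trp53inp1 was at 0.047 in the interaction. Leaving out 1 library gave −0.31 to 0.12 for Gdf15 in the induction of C cells. It gave −0.82 to 0.28 for Ccng1, −0.74 to 0.23 for Sesn2 and −0.68 to 0.013 for Phlda3 in the induction of P cells. At day −2 it gave −1.00 to 0.098 for Ccng1 and −0.58 to 0.91 for Trp53inp1, and at day 1 −0.13 to 0.28 for Bax. In the interaction it gave −0.0094 to 0.31 for Mdm2, −0.67 to 0.84 for Trp53inp1, −1.09 to 0.22 for Bbc3 and −0.38 to 0.30 for Phlda3. The cause was not tested.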
